A study of Mus musculus with 28 samples.

Results

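The 12 libraries described here are the unexposed control libraries of mouse sperm small RNA in a series of 28 libraries. They were chosen by their labels alone, and the other 16 libraries came from alcohol-exposed males or from males with a liver knockout of Nrf2 and are not described. The controls form 3 sets of 4. The WT controls were wild-type sperm with no alcohol exposure. The Nrf2-/- controls were sperm of Nrf2 knockout males with no alcohol exposure. The Nrf2 flox libraries were sperm of males with floxed Nrf2, without the Albumin-Cre that the liver knockout carries, and their label states that they are the control for Nrf2 but says nothing of alcohol. Nrf2 (gene Nfe2l2) is the transcription factor that switches on antioxidant genes. RNA was extracted with Trizol as total RNA, and libraries were made with the Qiaseq small RNA kit. The labels give neither strain nor age, do not state which part of Nrf2 is missing in the knockout, and do not say whether the 4 libraries of a set came from separate males, so the spread within a set may be technical. Each set was deposited in its own count table, so genotype and table cannot be told apart, and no genotype was tested. What follows gives shares of counts within a library and ranks of features within a class of RNA, with rank 1 for the highest count. Counts were not divided by length, so ranks compare reads and not molecules.

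Sperm carry little intact RNA and many short RNAs. Fragments of tRNAs are abundant in mature sperm and are gained in part during passage through the epididymis, the duct in which sperm mature. PIWI-interacting RNAs (piRNAs) are made in large numbers from long cluster transcripts in spermatocytes and silence transposable elements. MicroRNAs (miRNAs) bind messenger RNAs through their seed, bases 2 to 8, so miRNAs with the same seed share many targets.

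The miRNAs that led the 12 libraries belonged to few seed groups, and their mature sequences are shown because the libraries differed in which of these groups ranked first. All are written 5′ to 3′ with the seed in capitals, from RefSeq on GRCm38.p6, which held a mature sequence for 61 of the 80 miRNA entries that the naming rule admits and for 707 of all 1172 entries in the tables. The first 4 share a seed and make up the miR-15, miR-16 and miR-195 family, whose members restrain cell cycle genes.
miR-16-5p: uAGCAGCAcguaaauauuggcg
miR-15b-5p: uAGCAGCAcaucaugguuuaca
miR-15a-5p: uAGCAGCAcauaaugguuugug
miR-195a-5p: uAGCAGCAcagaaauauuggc

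miR-16-5p is encoded by Mir16-2 at chr3:69009918-69009939 on the plus strand, in an intron of Smc4, and by Mir16-1 at chr14:61631936-61631957 on the minus strand, in an intron of Dleu2. The next 5 are let-7 miRNAs, a family known for rising as cells differentiate.
let-7a-5p: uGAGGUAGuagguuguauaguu
let-7c-5p: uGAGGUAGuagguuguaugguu
let-7f-5p: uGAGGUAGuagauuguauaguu
let-7b-5p: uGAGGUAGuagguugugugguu
let-7g-5p: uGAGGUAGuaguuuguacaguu

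let-7c-5p is encoded at chr15:85706616-85706637 in an exon of the noncoding gene Lncppara and at chr16:77599672-77599693 in an intron of Mir99ahg, both on the plus strand. miR-191-5p and miR-93-5p ranked high in the Nrf2 flox libraries. miR-34b-5p and miR-449a-5p share the seed of a family abundant in male germ cells and in ciliated cells.
miR-191-5p: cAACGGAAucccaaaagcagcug
miR-93-5p: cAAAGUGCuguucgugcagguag
miR-34b-5p: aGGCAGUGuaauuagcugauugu
miR-449a-5p: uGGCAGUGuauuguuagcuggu

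miR-191-5p lies at chr9:108568325-108568347 on the plus strand, in an exon of the noncoding gene 4833445I07Rik. The last 2 sequences are each listed under more than 1 name, and they show below that the tables did not treat such names alike. The 3p arms of miR-465a, miR-465b and miR-465c, X-linked miRNAs of the testis, have 1 mature sequence, and so do miR-199a-3p and miR-199b-3p, which are typical of fibroblasts and smooth muscle.
miR-465a/b/c-3p: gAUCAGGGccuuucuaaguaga
miR-199a/b-3p: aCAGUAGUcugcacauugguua

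Depth ran from 1993933 counts in WT control 3 to 11119711 in WT control 1. No pair of libraries of a set agreed within sampling noise, since the lowest chi-square per degree of freedom of any pair was 52.02 over miRNAs, 1.70 over piRNA clusters and 1.76 over exons. Some libraries stood apart. WT control 1 had 75.8% of its counts in structural RNA against 22.5 to 28.7% in the other WT controls. Nrf2-/- controls 1 and 2 differed from Nrf2-/- controls 3 and 4: summed exon counts of the list of epididymis genes were 2375 and 1998 per 1000000 counts of all classes (CPM) in the first pair and 95.1 and 80.6 CPM in the second. WT control 4 and Nrf2-/- control 1 each listed an otherwise leading miRNA at 0. Exon counts of Nfe2l2 itself were 15, 19, 15 and 29 in the WT controls, 20, 17, 0 and 5 in the Nrf2-/- controls and 11, 9, 20 and 17 in the Nrf2 flox libraries. Depth differed, and these were 1.35, 2.78, 7.52 and 3.84 CPM in the WT controls. They were 4.15, 2.86, 0 and 0.775 CPM in the Nrf2-/- controls and 4.28, 2.15, 4.55 and 4.92 CPM in the Nrf2 flox libraries. With the deleted part not given, these counts do not check the genotype labels.

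The miRNA rows differed between tables in ways that bear on every miRNA rank below. A 0 was counted as a gap if 50 counts or more were expected at the mean share of the other libraries of the set, with at least 2 of these above 0. The WT controls had 38 such zeros in 33 miRNA entries, the Nrf2-/- controls had 23 in 19 entries and the Nrf2 flox libraries had none. The largest were miR-16-5p in WT control 4, where 258475 counts were expected, miR-191-5p in Nrf2-/- control 1, where 242642 were expected, and let-7c-5p in WT control 3, where 14126 were expected. Were these 0s true counts, they would allow at most 0.000293, 0.000151 and 0.00132% of miRNA counts in those libraries, at 3 counts each. piRNA clusters, structural RNA, hairpins and both repeat classes had no gap in any of the 12 libraries.

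The names that share 1 sequence behaved differently as well. The miR-465 names, in the order a, b and c, held 0.686, 0.686 and 0.684% of miRNA counts in Nrf2 flox 1, and in the Nrf2 flox set the names of 1 sequence lay within 1% of each other in 8 of 8 cases, a case being 1 of the 2 sequences in a library that counted it. In WT control 1 the same 3 names held 0.693, 2.65 and 2.06%, and names of 1 sequence lay within 1% of each other in 0 of 6 cases in the WT controls and 0 of 4 in the Nrf2-/- controls. All 3 miR-465 names were listed at 0 in WT controls 2 and 4 and in every Nrf2-/- control. In all, 16 miRNA entries present in each Nrf2 flox library were at 0 in all 4 Nrf2-/- controls, and 9 were at 0 in all 4 WT controls. miR-200c-3p, an epithelial miRNA, was the most abundant of the 9 at 1.03% ± 0.203 (SD, n = 4) of miRNA counts in the Nrf2 flox libraries. In the other direction, 10 entries present in each WT control and 4 present in each Nrf2-/- control were at 0 in all 4 Nrf2 flox libraries, and each of these carries a precursor name such as mir-101b or mir-881. How reads were assigned to names is not given in the sources used here. Counts and likeness of miRNA ranks are therefore also given for miRNAs above 0 in all 12 libraries, a choice made after seeing the data.

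Reads fell into 8 classes, and structural RNA, piRNA clusters and miRNAs were the 3 largest in all libraries but Nrf2-/- controls 1 and 2, where exons exceeded piRNA clusters. Structural RNA took 75.8, 24.0, 28.7 and 22.5% of all counts in WT controls 1 to 4, 26.8, 24.7, 33.9 and 33.8% in Nrf2-/- controls 1 to 4 and 31.5, 29.4, 38.9 and 30.8% in Nrf2 flox 1 to 4. Ranges of the 3 sets overlapped, and the WT mean of 37.8% ± 25.5 (SD, n = 4) became 25.1% without WT control 1. The structural share also rests on how copies were counted: with only the highest row of each RNA name, the set means were 13.4, 8.44 and 7.21%, for WT, Nrf2-/- and Nrf2 flox. In bulk RNA of this kind, fewer cells of a type and less RNA per cell cannot be told apart.

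piRNA clusters took 9.95, 34.8, 32.8 and 37.9% of counts in WT controls 1 to 4, 10.8, 9.23, 24.7 and 25.7% in Nrf2-/- controls 1 to 4 and 23.02, 28.7, 22.8 and 21.3% in Nrf2 flox 1 to 4. The set ranges overlapped. WT controls 2 to 4 were the highest of the 12, and WT control 1 with Nrf2-/- controls 1 and 2 were the lowest. The WT mean was 28.9% ± 12.8 with all 4 libraries and 35.2% without WT control 1. The Nrf2-/- mean of 17.6% ± 8.80 was 10.0% over controls 1 and 2 and 25.2% over controls 3 and 4.

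miRNAs took 4.26, 16.0, 11.4 and 13.5% of counts in WT controls 1 to 4, 41.3, 46.2, 21.5 and 22.7% in Nrf2-/- controls 1 to 4 and 18.3, 16.9, 14.1 and 22.7% in Nrf2 flox 1 to 4. Every WT control lay below every Nrf2-/- control, while the Nrf2 flox libraries overlapped both. miRNAs ranked first among the classes only in Nrf2-/- controls 1 and 2. The Nrf2-/- mean was 43.7% over those 2 libraries and 22.1% over controls 3 and 4, which was still above the highest WT control.

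The smaller classes were exons, introns and repeats. Exon rows took 2.85, 7.39, 8.44 and 8.04% in WT controls 1 to 4, 11.5, 11.4, 6.89 and 6.44% in Nrf2-/- controls 1 to 4 and 10.8, 9.84, 10.2 and 10.1% in Nrf2 flox 1 to 4, so every WT control lay below every Nrf2 flox library. Intron rows took 5.70% ± 1.69 in WT, 5.09% ± 0.765 in Nrf2-/- and 7.51% ± 0.697 in Nrf2 flox libraries, and all Nrf2-/- controls were below all Nrf2 flox libraries. Reads in the sense direction of repeats took 4.25% ± 1.64, 2.59% ± 0.370 and 3.55% ± 0.292 in the same order, again with Nrf2-/- below Nrf2 flox in each library. Hairpins, the miRNA precursors, took 0.0227 to 0.148% in the 12 libraries. The 95% Wilson interval of a single share was never wider than 0.0652 percentage points to either side, which covers counting error only and is far below the spread between libraries.

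**Figure D1:**
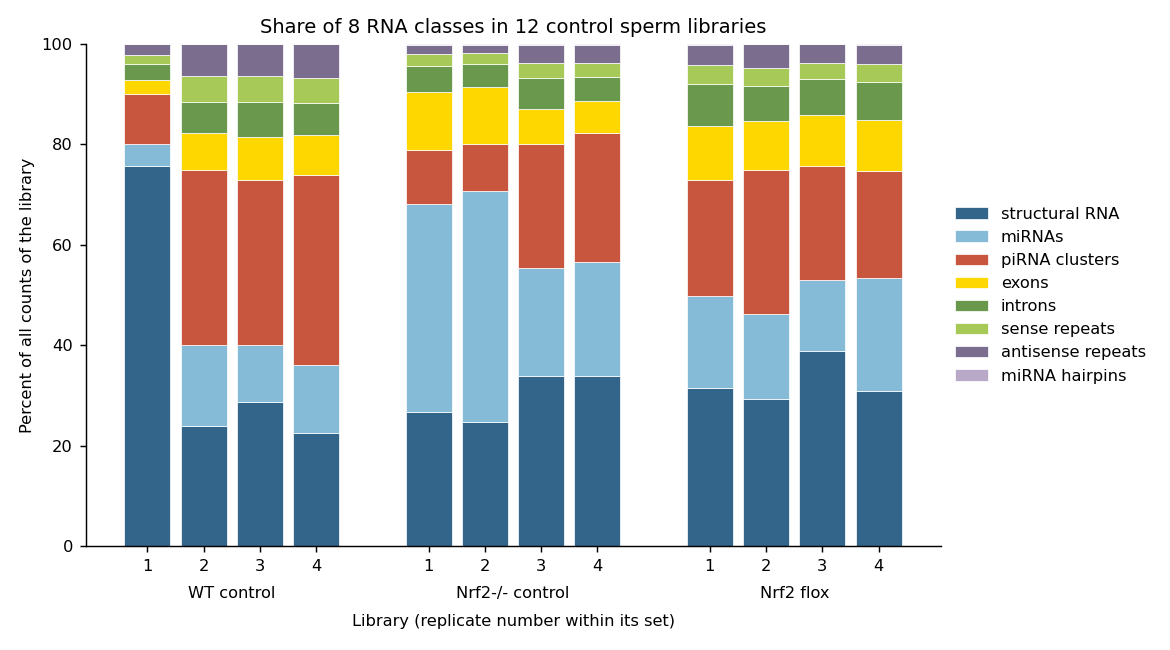
Percent of all counts of each library in the 8 feature classes, as stacked bars for WT control 1 to 4, Nrf2-/- control 1 to 4 and Nrf2 flox 1 to 4. WT control 1 stands out with 75.8% of counts in structural RNA, and Nrf2-/- controls 1 and 2 have the largest miRNA shares, 41.3 and 46.2%.

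The order of piRNA clusters was almost the same in all 12 libraries, whatever the share of the class. Cluster 18-qE1-36451.1 ranked first in each library, at 6.18, 6.18, 6.34 and 6.26% of piRNA cluster counts in WT controls 1 to 4, 5.65, 5.64, 5.65 and 5.45% in Nrf2-/- controls 1 to 4 and 5.85, 5.79, 5.71 and 5.85% in Nrf2 flox 1 to 4. These values spanned less than 1 percentage point over the 3 sets, with the WT controls the highest. Cluster 9-qC-31469.1 was at rank 2 in 11 libraries, at 5.22 to 5.76%, and 17-qA3.3-27363.1 at rank 3 in 11, at 4.36 to 5.71%. Those 2 changed places only in Nrf2 flox 3. Clusters 9-qA5.3-24188.1 at 3.91 to 4.28% and 6-qF3-28913.1 at 3.46 to 4.23% were at ranks 4 and 5 except in WT control 1, where they changed places.

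The 10 most abundant clusters of a library held 38.0 to 38.6% of its piRNA cluster counts in all 12 libraries, and 9 clusters were among the 10 highest in every library. Across 191 clusters Spearman's rho between 2 libraries of different sets had a median of 0.993 and a lowest value of 0.990. The median coefficient of variation of a cluster's share was 4.42% within WT, 4.77% within Nrf2-/- and 4.45% within Nrf2 flox libraries. Nrf2-/- controls 1 and 2, with the lowest piRNA shares of their set, kept this order as well. These clusters are not independent rows, since 52 of the 195 rows with at least 100 counts, with 13.3% of the counts of the class, held the same values as another row in all 12 libraries. With near-identical rows of a cluster number counted once, the 10 highest held 45.4% in WT, 45.4% in Nrf2-/- and 45.8% in Nrf2 flox libraries.

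tRNAs made up 94.7 to 99.2% of structural RNA counts, and different tRNAs led in different libraries. Fragments of tRNA-Gly and tRNA-Glu are the best known tRNA fragments of sperm. tRNA-Gly-GGY held 36.0, 17.98, 22.8 and 24.8% of structural RNA counts in WT controls 1 to 4, 11.3, 9.78, 7.75 and 6.72% in Nrf2-/- controls 1 to 4 and 45.0, 29.7, 43.8 and 34.0% in Nrf2 flox 1 to 4. It ranked first in 7 libraries, all 4 Nrf2 flox libraries among them, and held ranks 3 to 6 in the Nrf2-/- controls, where each value was below every WT and Nrf2 flox value. tRNA-Glu-GAG_ was steadier, at 26.8, 18.4, 21.2 and 17.0% in WT controls 1 to 4, 16.1, 16.5, 17.0 and 20.6% in Nrf2-/- controls 1 to 4 and 16.6, 20.3, 22.9 and 18.8% in Nrf2 flox 1 to 4, and ranked first or second in all 12 libraries.

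tRNA-Val-GTG held 14.7, 6.74, 6.76 and 6.96% in WT controls 1 to 4, 21.6, 19.9, 11.8 and 9.93% in Nrf2-/- controls 1 to 4 and 2.40, 3.86, 3.52 and 3.86% in Nrf2 flox 1 to 4. It ranked first in Nrf2-/- controls 1 and 2 and was lowest in the Nrf2 flox libraries. All tRNA-Val names together held 31.7, 29.1, 17.0 and 14.4% in the Nrf2-/- controls and 3.66, 5.39, 5.24 and 5.78% in the Nrf2 flox libraries. tRNA-Cys-TGY separated the Nrf2-/- controls, at 4.57, 4.89, 13.3 and 12.5%, so that it held rank 8 in controls 1 and 2 and rank 2 in controls 3 and 4. In the other 8 libraries it held 1.54 to 4.43%.

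tRNA-Lys-AAA held 3.00, 4.44, 3.36 and 3.88% in WT controls 1 to 4, 7.72, 9.63, 8.56 and 7.23% in Nrf2-/- controls 1 to 4 and 1.32, 2.79, 1.33 and 2.40% in Nrf2 flox 1 to 4, higher in each Nrf2-/- control than in any other library. tRNA-Asp-GAY held 1.42, 8.15, 8.51 and 8.43% in WT controls 1 to 4, 5.39, 5.67, 5.73 and 8.00% in Nrf2-/- controls 1 to 4 and 8.47, 8.66, 8.07 and 7.12% in Nrf2 flox 1 to 4, so WT control 1 was the lowest of the 12. In that library tRNA-Gly-GGY, tRNA-Glu-GAG_ and tRNA-Val-GTG were each higher than in the other WT controls, and tRNA-Leu-CTY was lower, at 0.619% against 2.78 to 3.78%. The 10 most abundant names held 94.0% of structural RNA counts in WT control 1 and 72.1 to 87.8% in the other 11 libraries. Of 24 rows named tRNA-Gly-GGY, 10 lay within 10% of the highest row, as did 4 of 5 for tRNA-Leu-CTY, 7 of 69 for tRNA-Cys-TGY and 1 of 19 for tRNA-Asp-GAY. Whether a read was counted at more than 1 copy is not given in the sources used here.

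miRNAs had different leaders from set to set and within sets, and only let-7a-5p was among the 10 highest miRNAs of all 12 libraries. miR-16-5p held 13.3, 33.7, 28.7 and 0% of miRNA counts in WT controls 1 to 4, 12.4, 14.8, 33.8 and 38.9% in Nrf2-/- controls 1 to 4 and 22.8, 28.0, 22.4 and 24.9% in Nrf2 flox 1 to 4. It ranked first in 9 libraries, ranks 3 and 2 in Nrf2-/- controls 1 and 2, and was listed at 0 in WT control 4. The WT mean of 18.9% ± 15.3 (SD, n = 4) includes that 0, and the mean of the other 3 WT controls was 25.2%. The Nrf2 flox mean was 24.5% ± 2.58.

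miR-191-5p held 1.35, 4.02, 4.20 and 6.18% in WT controls 1 to 4, 0, 4.42, 16.1 and 16.1% in Nrf2-/- controls 1 to 4 and 14.9, 14.1, 13.4 and 13.6% in Nrf2 flox 1 to 4. It held rank 2 in all 4 Nrf2 flox libraries and in Nrf2-/- controls 3 and 4, ranks 15, 5, 4 and 4 in the WT controls, and was listed at 0 in Nrf2-/- control 1. let-7a-5p held 13.0, 5.03, 7.95 and 8.04% in WT controls 1 to 4, 15.2, 14.2, 15.1 and 14.5% in Nrf2-/- controls 1 to 4 and 2.97, 4.37, 4.02 and 3.78% in Nrf2 flox 1 to 4, with ranks of 2, 4, 2 and 1, 2, 3, 3 and 3 and 5, 3, 5 and 5. The 4 Nrf2-/- controls lay within about 1 percentage point of each other for let-7a-5p, above every other library.

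let-7c-5p held 12.4, 1.78, 0 and 4.43% in WT controls 1 to 4, 29.7, 28.6, 9.25 and 7.81% in Nrf2-/- controls 1 to 4 and 2.44, 3.01, 3.77 and 2.63% in Nrf2 flox 1 to 4. It led Nrf2-/- controls 1 and 2, held rank 4 in controls 3 and 4, and was listed at 0 in WT control 3. let-7f-5p held ranks between 3 and 17 in the 12 libraries, at 5.62, 1.28, 3.44 and 3.35% in WT controls 1 to 4, 8.75, 8.11, 2.14 and 2.31% in Nrf2-/- controls 1 to 4 and 3.54, 3.32, 4.83 and 4.54% in Nrf2 flox 1 to 4. miR-34c-5p, the germ cell miRNA of this group of leaders, held 2.64, 6.88, 4.49 and 6.39% in WT controls 1 to 4, 0.456, 0.334, 0.856 and 0.728% in Nrf2-/- controls 1 to 4 and 0.813, 1.13, 0.817 and 0.823% in Nrf2 flox 1 to 4. Its ranks were 9, 2, 3 and 3 in the WT controls and 14 to 26 in the other 8 libraries, so the WT range overlapped neither of the other sets.

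miR-93-5p, of the cluster within Mcm7, held 4.05, 4.10, 3.91 and 4.00% in the Nrf2 flox libraries, with ranks of 3, 4, 6 and 4, and at most 2.23% elsewhere. miR-143-3p, typical of smooth muscle, ranked second in WT control 4 at 7.60% and held 0.295 to 1.49% in the other WT controls. miRNA counts were most concentrated in the Nrf2-/- controls, where the 10 highest miRNAs held 85.6% ± 1.28 (SD, n = 4), against 61.8% ± 7.45 in WT and 62.0% ± 2.52 in Nrf2 flox libraries. All 4 Nrf2-/- controls lay above the other 8 libraries. Reduced to 1993933 counts of all classes, a library was expected to show 272 to 512 miRNA entries in the WT, 278 to 473 in the Nrf2-/- and 486 to 522 in the Nrf2 flox set.

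**Figure D2:**
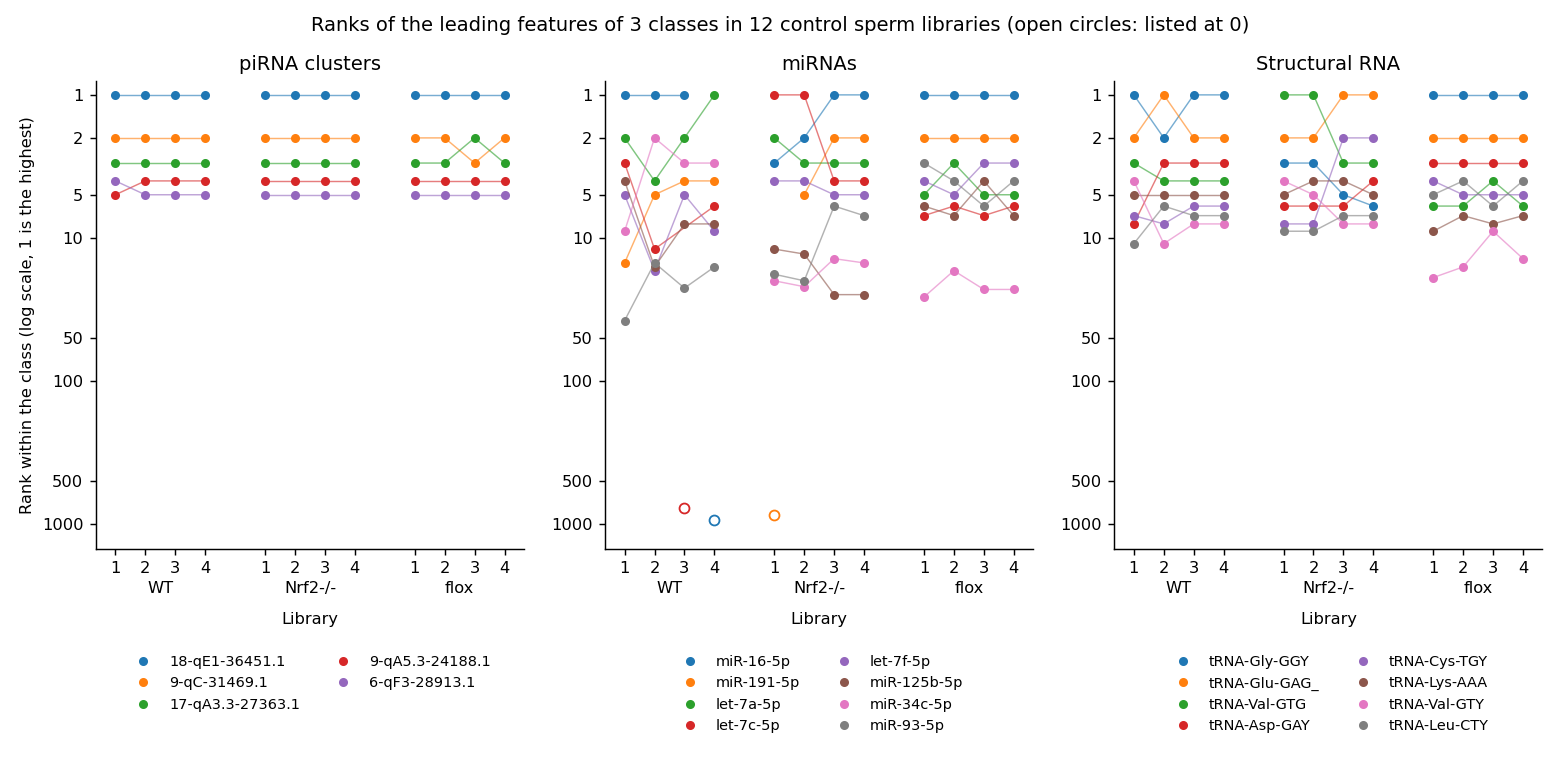
Rank within the class (log scale, 1 is the highest count) of leading piRNA clusters, miRNAs and structural RNAs in the 12 libraries, with open circles for a count of 0 and lines only to help follow a feature within a set. Ranks of piRNA clusters change places in 2 libraries, while miRNA and tRNA ranks cross within and between sets.

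The sets also differed in the summed counts of miRNA families. let-7 with miR-98 held 34.8, 8.79, 13.0 and 17.7% in the WT controls, 64.6, 58.8, 30.0 and 28.7% in the Nrf2-/- controls and 11.5, 13.7, 16.1 and 13.6% in the Nrf2 flox libraries. Nrf2-/- controls 1 and 2 were highest, WT control 1 was highest of its set, and the Nrf2 flox libraries lay below all Nrf2-/- controls. In Nrf2-/- controls 1 and 2 the epididymis list was highest too, at 2375 and 1998 CPM, and its part in the let-7 share was not tested.

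The miR-15, miR-16 and miR-195 family held 14.0, 36.6, 30.7 and 3.02% in the WT controls, 12.8, 15.4, 35.8 and 40.1% in the Nrf2-/- controls and 23.5, 28.7, 22.9 and 25.8% in the Nrf2 flox libraries, and miR-16-5p carried nearly all of it except in WT control 4. miR-191 with miR-425 held 1.90, 6.23, 5.56 and 8.60% in the WT controls, 0.118, 4.50, 16.4 and 16.4% in the Nrf2-/- controls and 15.4, 14.7, 13.8 and 14.1% in the Nrf2 flox libraries. The miR-34 and miR-449 family held 3.97, 10.9, 7.79 and 8.30% in the WT controls, 1.02, 0.592, 1.13 and 1.04% in the Nrf2-/- controls and 1.68, 2.16, 1.53 and 1.71% in the Nrf2 flox libraries. Each WT control was above each library of the other sets, with means of 7.73% ± 2.85 against 0.945% ± 0.241 and 1.77% ± 0.273 (SD, n = 4 each). Summed transcripts of sperm and spermatids had another order and were highest in Nrf2-/- controls 3 and 4, at 1196 and 1502 CPM.

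X-linked miRNAs of the testis held 7.00, 2.45, 7.25 and 3.89% in the WT controls, 0.335, 0.328, 1.94 and 2.24% in the Nrf2-/- controls and 5.93, 6.24, 5.20 and 5.79% in the Nrf2 flox libraries. The Nrf2-/- controls were below all other libraries, but the miR-465 names listed at 0 in all of them belong to this list. In WT control 1 those names held most of the 7.00%. Without them WT control 1 would lie below Nrf2-/- controls 3 and 4, so the order rests on these names. miRNAs of the cluster within Sfmbt2, a large rodent cluster, held 1.81, 5.89, 5.43 and 4.34% in the WT controls, 0.468, 0.526, 2.83 and 1.53% in the Nrf2-/- controls and 0.364, 0.276, 0.228 and 0.403% in the Nrf2 flox libraries, and the Nrf2 flox libraries were lowest. The Nrf2-/- mean of 1.34% ± 1.11 became 0.842% without control 3. Its most abundant member, miR-669a-3p, held 0.802, 3.82, 3.33 and 3.16% in the WT controls and 0.0680, 0.0412, 0.0371 and 0.0705% in the Nrf2 flox libraries.

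**Figure D3:**
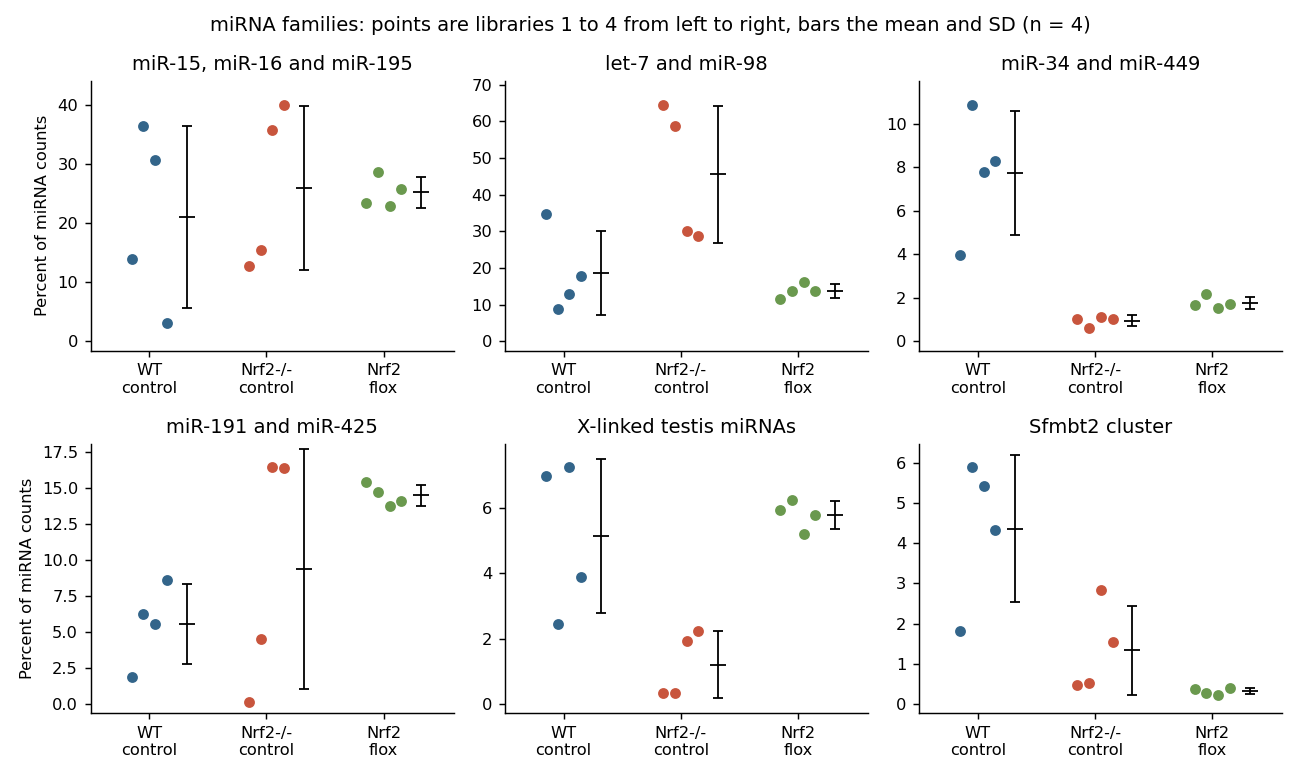
Percent of miRNA counts summed over 6 miRNA lists, with 1 point per library and the mean and SD (n = 4) of each set beside the points. The miR-34 and miR-449 list is higher in every WT control than in any other library, and let-7 is highest in Nrf2-/- controls 1 and 2 at 64.6 and 58.8%.

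The remaining lists were smaller. miR-17-92 and its paralogues held 2.12, 10.7, 5.90 and 10.7% in the WT controls, 0.688, 0.582, 2.49 and 2.14% in the Nrf2-/- controls and 7.00, 7.07, 5.85 and 6.87% in the Nrf2 flox libraries. miR-30 held 3.54% ± 1.61 in WT, 1.31% ± 0.215 in Nrf2-/- and 4.87% ± 0.806 in Nrf2 flox libraries (SD, n = 4 each). The list that joins miR-10 with miR-99, miR-100 and the miR-125 genes held 6.83% ± 4.49, 2.92% ± 2.54 and 6.23% ± 1.29 in that order. In the same order miR-29 held 2.52% ± 0.862, 1.12% ± 0.897 and 1.88% ± 0.263.

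The imprinted Dlk1-Dio3 cluster was at 0.0177% ± 0.0196 in WT, 0.00440% ± 0.00390 in Nrf2-/- and 0.142% ± 0.0245 in Nrf2 flox libraries. WT control 4 held 0.0471% against 0.00718 to 0.00879% in the other WT controls, and the WT mean without it was 0.00797%. The Nrf2-/- mean without control 1 was 0.00249%. miR-148 and miR-152 together held 0.877% ± 0.342 in WT and 0.696% ± 0.266 in Nrf2 flox libraries, and at most 0.00402% in an Nrf2-/- control. The epithelial list of miR-200 and miR-205 held 1.96% ± 0.983, 0.765% ± 0.637 and 2.63% ± 0.485 in WT, Nrf2-/- and Nrf2 flox libraries, with miR-200c-3p at 0 in every WT control.

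Lists for cells other than sperm also differed between libraries. Leukocyte miRNAs held 2.47% ± 0.383 in WT, 0.252% ± 0.176 in Nrf2-/- and 1.50% ± 0.482 in Nrf2 flox libraries. Of this, miR-21a-5p alone held 2.28, 0.185 and 0.738% in that order, so the list mostly follows 1 miRNA in WT. miR-146a-5p, on the same list, went the other way, at 0.0241% in WT and 0.301% in Nrf2 flox libraries. In the same order smooth muscle and fibroblast miRNAs held 3.51% ± 4.18, 2.23% ± 2.06 and 2.63% ± 0.258. The WT value rested on WT control 4, at 9.71% against 0.745 to 2.15% in the other WT controls, and the WT mean without it was 1.44%. Liver miRNAs held 0.116% ± 0.131, 0.161% ± 0.106 and 1.04% ± 0.479, with a WT mean of 0.0514% without WT control 4. Red blood cell miRNAs held 0.107% ± 0.0860, 0.511% ± 0.625 and 0.154% ± 0.0953. Without WT control 4 the WT mean was 0.0638%, and without Nrf2-/- control 3 the Nrf2-/- mean was 0.208%. Skeletal muscle miRNAs were at 0.817% ± 0.710, 0.278% ± 0.303 and 0.703% ± 0.801. Nrf2 flox 1 held 1.90% against 0.265 to 0.328% in the other Nrf2 flox libraries, whose mean was 0.302%, and the Nrf2-/- mean without control 1 was 0.153%. Brain miRNAs were at 0.561% ± 0.118, 0.155% ± 0.0944 and 0.349% ± 0.0736.

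Ranks were then compared miRNA by miRNA, without a test, by counting the miRNAs whose 4 ranks in one set were all better than all 4 in another. Of 307 miRNAs with a mean of at least 10 counts, 40 (13%) ranked better in all WT than in all Nrf2-/- controls, and 44 (14.3%) the other way round. Between WT and Nrf2 flox libraries, 81 (26.4%) were better in WT and 80 (26.1%) in Nrf2 flox. Between Nrf2-/- and Nrf2 flox libraries, 82 (26.7%) were better in Nrf2-/- and 76 (24.8%) in Nrf2 flox. Ranks of a library have a fixed sum, so they show only relative order. TMM-scaled CPM of the 307 in place of ranks gave 119 (38.8%) for Nrf2 flox and 72 (23.5%) for Nrf2-/-. It gave 102 (33.2%) for Nrf2 flox and 65 (21.2%) for WT, and 46 (15%) for WT and 39 (12.7%) for Nrf2-/-.

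Beyond the leaders, miR-148a-3p ranked 19 to 33 of the 307 in the WT controls and 152.5 to 273.5 in the Nrf2-/- controls, at 0.927, 0.451, 1.24 and 0.570% and 0.00342, 0.00135, 0.000355 and 0% of miRNA counts. miR-34b-5p and miR-19b-3p followed in that direction, the latter at 0.813, 5.90, 2.29 and 4.58% in WT and 0.0324, 0.0402, 0.199 and 0.123% in Nrf2-/- controls. In the opposite direction stood miR-30d-5p, miR-151-5p and miR-486a-5p, a red blood cell miRNA. miR-30d-5p was listed at 0 in WT controls 2 to 4 and held 0.432, 0.313, 0.444 and 0.356% in the Nrf2-/- controls and 2.00, 1.73, 1.65 and 1.55% in the Nrf2 flox libraries.

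Against the Nrf2 flox libraries, miR-669a-3p, miR-19b-3p and miR-34c-5p led the miRNAs ranked better in WT, and miR-30d-5p, miR-200c-3p and miR-93-5p those ranked better in Nrf2 flox. Between Nrf2-/- and Nrf2 flox libraries, mir-881, let-7g-5p and miR-669a-3p led for Nrf2-/-. let-7g-5p held 4.19, 2.71, 1.09 and 2.07% in the Nrf2-/- controls and 0.313, 0.293, 0.286 and 0.366% in the Nrf2 flox libraries. The 3 miR-465 names led for Nrf2 flox, and each of them was at 0 in all Nrf2-/- controls. Several of these extremes thus rest on zeros. Among the 138 miRNAs above 0 in all 12 libraries, counts were 21 (15.2%) for WT and 28 (20.3%) for Nrf2-/-. They were 31 (22.5%) for WT and 41 (29.7%) for Nrf2 flox, and 32 (23.2%) for Nrf2-/- and 35 (25.4%) for Nrf2 flox.

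Read against these backgrounds, let-7 had 6 of 12 members with a mean of at least 10 counts, of 32 listed, better in Nrf2-/- than in WT controls (background 14.3%) and 6 of 12 better than in Nrf2 flox libraries (26.7%), with 0 in the opposite direction in either comparison. The miR-34 and miR-449 list had 2 of 6 members, of 17 listed, better in WT than in Nrf2-/- (background 13%) and 2 of 6 better than in Nrf2 flox libraries (26.4%), with 0 in the opposite direction in either comparison. With so few members, 2 of 6 is close to the second background. The Sfmbt2 cluster had 14 of 27 members, of 123 listed, better in WT than in Nrf2 flox (26.4%) and 14 of 27 better in Nrf2-/- than in Nrf2 flox (26.7%), with 0 the other way. The Dlk1-Dio3 cluster had 7 of 8 members, of 65 listed, better in Nrf2 flox than in WT (26.1%) and 5 of 8 better than in Nrf2-/- (24.8%), with 0 the other way. miR-30 had 6 of 9 members, of 17 listed, better in Nrf2 flox than in WT libraries (26.1%), with 0 the other way. It had 4 of 9 better in Nrf2-/- than in WT (14.3%) and 1 of 9 the reverse (13%). miR-30d-5p and miR-30a-5p were among the members ranked worse in WT in both comparisons. Each was listed at 0 in WT libraries, with a worst WT rank of 286. X-linked testis miRNAs were split: 12 of 27, of 45 listed, were better in Nrf2 flox than in Nrf2-/- libraries (24.8%) and 7 of 27 the reverse (26.7%), the latter near the background. The 12 include the 3 miR-465 names, which have 1 mature sequence and were each at 0 in every Nrf2-/- control, so 1 sequence was counted 3 times. Comparisons with the same set share its libraries. The filter used the mean over all 12 libraries, so members could pass mainly through a set where they were high. The Dlk1-Dio3 cluster held 0.142% of miRNA counts in Nrf2 flox libraries, 0.0177% in WT and 0.00440% in Nrf2-/-. The Sfmbt2 cluster held 4.37% in WT, 1.34% in Nrf2-/- and 0.318% in Nrf2 flox libraries. The counts of members for these lists are therefore no separate support for a difference between sets.

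Hairpin rows count reads on miRNA precursors, a class of few counts. mir-101b led all WT and Nrf2 flox libraries, at 11.5, 19.5, 13.5 and 16.5% and 20.3, 15.0, 14.2 and 21.6% of hairpin counts, and held 7.83, 8.22, 3.28 and 2.44% in the Nrf2-/- controls. mir-881, an X-linked miRNA of the testis, led all Nrf2-/- controls at 19.2, 23.3, 33.4 and 50.9%, against 8.21 to 14.6% in WT and 6.05 to 10.0% in Nrf2 flox libraries. mir-21a again separated the Nrf2-/- controls, at 12.3, 10.6, 1.43 and 0.534%.

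Exon reads checked the label sperm. All 43 listed genes of sperm and spermatids had a row, none was at 0 over a whole set, and their summed level was 406, 872, 781 and 835 CPM in the WT controls, 298, 360.0, 1196 and 1502 in the Nrf2-/- controls and 1077, 1117, 911 and 1060.1 in the Nrf2 flox libraries. Smcp, a protein of the mitochondrial capsule of the sperm tail, was at 64.8, 177, 186 and 217 CPM in the WT controls, 38.0, 62.0, 244 and 325 in the Nrf2-/- controls and 201, 211, 119 and 233 in the Nrf2 flox libraries. Odf1, of the outer dense fibres of the tail, was at 58.1, 122, 131 and 122 CPM in the WT controls, 39.8, 57.5, 219.8 and 253 in the Nrf2-/- controls and 90.4, 124, 79.2 and 109 in the Nrf2 flox libraries. Prm2, the protamine that packs sperm DNA, ranged from 29.8 to 121 CPM. All 3 were lowest in Nrf2-/- controls 1 and 2. Smcp and Odf1 were highest in Nrf2-/- controls 3 and 4, while Prm2 was highest in Nrf2-/- control 4 and Nrf2 flox 2. As a share of exon counts the list had set means of 1.14% in WT, 1.16% in Nrf2-/- and 1.02% in Nrf2 flox libraries, an order that differs from the order by CPM. Spermatocyte genes summed to 23.2 to 94.4 CPM.

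The epididymis list had 43 of 46 genes with a row and summed to 369, 591, 878 and 797 CPM in the WT controls, 2375, 1998, 95.1 and 80.6 in the Nrf2-/- controls and 894, 966, 1108 and 843 in the Nrf2 flox libraries. Of its genes, 5 were at 0 over the WT set, 5 over the Nrf2-/- set and 6 over the Nrf2 flox set. Crisp1, a secreted protein that coats sperm, was at 132, 256, 425 and 391 CPM in the WT controls, 933, 921, 29.8 and 10.1 in the Nrf2-/- controls and 472, 463, 465 and 477 in the Nrf2 flox libraries, with exon ranks of 4, 4, 228 and 718.5 in the Nrf2-/- controls and 22 to 34 in the other libraries. Cd52, a surface antigen that sperm take up in the epididymis, was at 38.4, 55.2, 109.8 and 78.2 CPM in the WT controls, 354, 302, 11.7 and 8.22 in the Nrf2-/- controls and 107, 132, 109 and 104 in the Nrf2 flox libraries. Spink8 was at 23.2, 46.9, 64.7 and 70.9 CPM in the WT controls, 428, 415, 8.67 and 4.96 in the Nrf2-/- controls and 77.5, 71.8, 70.5 and 79.0 in the Nrf2 flox libraries. Clu, the clusterin gene, was at 38.0, 64.2, 49.1 and 47.0 CPM in the WT controls, 252, 73.8, 6.12 and 9.30 in the Nrf2-/- controls and 39.7, 29.8, 76.2 and 30.1 in the Nrf2 flox libraries, so Nrf2-/- control 2 lay below Nrf2 flox 3. Akr1b7, an aldo-keto reductase abundant in the vas deferens and not on the list, was at 69.1, 177, 922 and 544 CPM in the WT controls, 4218, 4609, 101 and 5.58 in the Nrf2-/- controls and 1075, 908, 1284 and 1228 in the Nrf2 flox libraries and was the leading exon feature of Nrf2-/- controls 1 and 2. Crisp1, Cd52, Spink8 and Akr1b7 were highest in Nrf2-/- controls 1 and 2. Crisp1, Cd52, Spink8 and Clu were lowest in controls 3 and 4, and Akr1b7 was lowest in control 4 and next in WT control 1. Without controls 1 and 2 the Nrf2-/- mean of the list was 87.9 CPM.

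Genes of cytosolic ribosomal proteins were high and low in the same Nrf2-/- controls as the epididymis list, at 287, 426, 630.4 and 581 CPM in the WT controls, 2149.9, 2067, 307 and 290.3 in the Nrf2-/- controls and 846, 868, 1226 and 861 in the Nrf2 flox libraries. Nrf2 target genes summed to 53.6, 91.1, 166 and 144 CPM in the WT controls, 431, 426, 69.9 and 64.4 in the Nrf2-/- controls and 194, 192, 243 and 196 in the Nrf2 flox libraries. Among them Gstm2, a glutathione transferase, was at 3.60, 4.98, 10.5 and 10.4 CPM in the WT controls, 58.5, 55.5, 1.02 and 1.71 in the Nrf2-/- controls and 14.8, 16.7, 13.7 and 11.6 in the Nrf2 flox libraries. Fth1 and Ftl1 were also higher in Nrf2-/- controls 1 and 2 than in controls 3 and 4. Keap1, on the same list, went the other way, at 8.30, 11.9, 14.0 and 12.9 CPM in Nrf2-/- controls 1 to 4. In summed level the Nrf2-/- controls thus held both the highest and nearly the lowest Nrf2 targets of the 12, next to the highest and lowest epididymis levels. The part of the epididymis RNA in this was not tested.

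Smooth muscle and fibroblast genes summed to 18.3, 44.5, 46.6 and 71.7 CPM in the WT controls, 100.2, 66.6, 53.5 and 59.5 in the Nrf2-/- controls and 272, 200.1, 431 and 199.5 in the Nrf2 flox libraries, so every Nrf2 flox library was above all others. Col1a1, a collagen gene, was at 0.989, 6.30, 6.02 and 4.89 CPM in the WT controls, 6.02, 3.70, 11.0 and 8.22 in the Nrf2-/- controls and 59.2, 47.7, 111 and 36.5 in the Nrf2 flox libraries. Col1a2 and Col3a1 were likewise higher in every Nrf2 flox library than in any other. Myh11, on the same list, overlapped, at 34.7 CPM in Nrf2-/- control 1 against 29.2 and 20.3 CPM in Nrf2 flox 1 and 2. The order of the summed level therefore did not hold for each gene of the list. Hepatocyte genes also differed, and Alb, the albumin gene of the liver, was at 0.270, 2.49, 2.51 and 1.72 CPM in the WT controls, 17.8, 31.3, 41.8 and 48.5 in the Nrf2-/- controls and 54.5, 13.1, 69.2 and 26.9 in the Nrf2 flox libraries, so every WT control was below all other libraries for Alb. Trf and Apoa1 were likewise lowest in the WT controls. Apob overlapped, at 5.52 CPM in WT control 3 against 5.19 in Nrf2-/- control 1 and 3.34 and 3.76 in Nrf2 flox 2 and 4. Hepatocyte genes together ranged over 2.43 to 160.2 CPM, leukocyte genes over 10.5 to 67.4 CPM, red blood cell genes over 2.25 to 43.5 CPM and Sertoli and Leydig cell genes over 4.05 to 26.6 CPM. Of the 20 Sertoli and Leydig genes with a row, 3, 5 and 4 were at 0 over the WT, Nrf2-/- and Nrf2 flox sets. They included Insl3 over the Nrf2-/- set and Amh and Gata4 over the Nrf2 flox set. These had only 15, 7 and 6 counts over the 12 libraries, so a 0 in a set says little. Other members of the list were present. Star and Sox9 were above 0 in all 12 libraries. Cyp17a1 was at 3.51, 1.67, 4.10 and 0.290 CPM in the Nrf2 flox libraries and at most 0.265 CPM elsewhere.

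**Figure D4:**
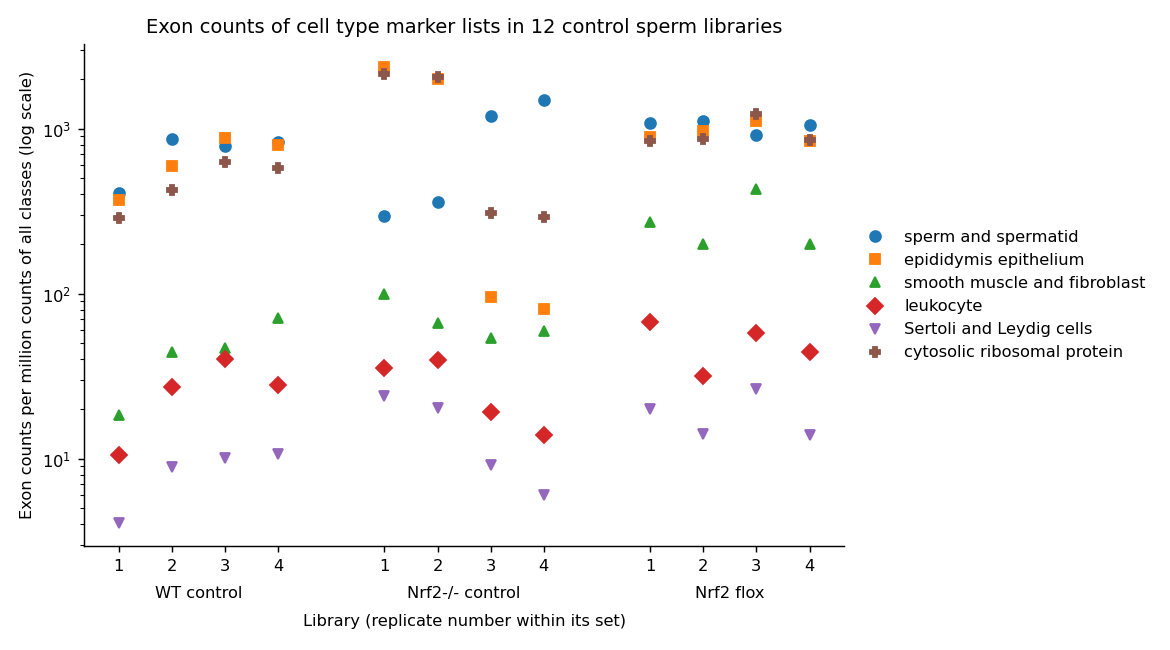
Exon counts of 6 gene lists in CPM of all classes (log scale) in each of the 12 libraries. The epididymis and ribosomal protein lists are highest in Nrf2-/- controls 1 and 2 and far lower in controls 3 and 4, where the sperm and spermatid list is highest.

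Gm5878 led all 4 WT controls, Nrf2-/- control 4 and Nrf2 flox 2, at 2.69, 3.24, 2.81 and 3.26% of exon counts in WT controls 1 to 4, 0.635, 0.553, 2.66 and 3.17% in Nrf2-/- controls 1 to 4 and 1.78, 2.39, 1.72 and 1.78% in Nrf2 flox 1 to 4. 1700001L05Rik was at rank 2 or 3 in 10 libraries. Snord85, a small nucleolar RNA, led Nrf2 flox 1, 3 and 4 at 2.53, 2.62 and 2.47%, and Rnu12, a small nuclear RNA of the minor spliceosome, led Nrf2-/- control 3 at 2.78%. Reads in a host gene and in a small RNA within it cannot be told apart from these tables.

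Intron counts came from few introns. LOC100125594 ranked first or second in all 12 libraries at 4.02 to 16.3% of intron counts, nearly all in 1 of its 4 intron rows. Pcsk5, a proprotein convertase gene, held 30.5, 3.06, 3.53 and 4.27% in WT controls 1 to 4, 0.854, 0.683, 0.330 and 0.150% in Nrf2-/- controls 1 to 4 and 5.63, 5.37, 15.5 and 5.98% in Nrf2 flox 1 to 4, so WT control 1 and Nrf2 flox 3 stood out, and 99.9% of these counts lay in 1 of its 27 intron rows. Gas5 and Snhg1, host genes of small nucleolar RNAs, held ranks 1 and 4 in Nrf2-/- control 1 and ranks 1 and 3 in control 2. Gas5 introns held 4.99, 6.15, 1.48 and 1.33% in the Nrf2-/- controls and at most 1.06% elsewhere. Introns of Eif4g2, a translation factor gene, held 3.40, 2.91, 2.98 and 2.07% in the Nrf2-/- controls and at most 0.505% elsewhere.

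The leader among sense reads of repeats differed between libraries. L1Md_F2, a LINE-1 element, led all WT and Nrf2 flox libraries, at 22.7, 22.6, 17.7 and 16.9% and 9.51, 7.39, 7.15 and 9.48% of sense repeat counts, and held 9.21, 9.40, 9.51 and 8.10% in the Nrf2-/- controls. A single copy carried 96.8% of its counts. RLTR4_MM-int, the internal part of an endogenous retrovirus of the murine leukemia virus type, held 1.03, 0.781, 2.44 and 1.93% in WT controls 1 to 4, 17.5, 20.1, 0.764 and 0.185% in Nrf2-/- controls 1 to 4 and 4.25, 3.64, 5.70 and 4.82% in Nrf2 flox 1 to 4. It led Nrf2-/- controls 1 and 2 and was spread over many copies, with 13.4% of its counts in the highest. MuLV-int, of the same type, held 7.99, 9.65, 0.140 and 0.142% in the Nrf2-/- controls. B1_Mus1, a short interspersed element, held 5.41, 6.80, 10.9 and 17.6% there, led controls 3 and 4 and was at most 1.30% in the other sets, and 88.4% of its counts lay in 1 of its 1792 copies.

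Antisense reads of repeats had 1 leader. MurERV4_19-int, an endogenous retrovirus, ranked first in all 12 libraries at 3.91 to 5.72% of antisense repeat counts, with 96.2% of its counts in 1 copy. L1M2, a LINE-1 element, was at rank 2 or 3 in WT and Nrf2 flox libraries and at rank 7 or 8 in the Nrf2-/- controls. The ratio of antisense to sense counts was 1.24 ± 0.0677 in WT, 1.03 ± 0.267 in Nrf2-/- and 1.14 ± 0.0745 in Nrf2 flox libraries (SD, n = 4 each). Within the Nrf2-/- set the ratio ran from 0.740 to 1.28, with antisense below sense in controls 1 and 2, and the sets overlapped.

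Likeness of libraries followed the class of RNA. Across features of a class, the median Spearman's rho over the 48 pairs of libraries from different sets was 0.993 for piRNA clusters, 0.923 for antisense repeats, 0.913 for structural RNA (75 names), 0.904 for sense repeats, 0.626 for exons, 0.612 for miRNAs (259 entries), 0.565 for hairpins and 0.538 for introns. The features of a library share its depth and preparation, so these are descriptions with no test. With miRNAs above 0 in all 12 libraries only, the miRNA median was 0.716 between sets. Within sets the miRNA medians were 0.757 for WT, 0.759 for Nrf2-/- and 0.970 for Nrf2 flox libraries. Exons gave 0.786, 0.168 and 0.744 in the same order. The low Nrf2-/- value came from pairs across its 2 kinds of library: rho was 0.945 between controls 1 and 2 and 0.831 between controls 3 and 4, but 0.0275 to 0.171 between a library of the first pair and a library of the second.

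**Figure D5:**
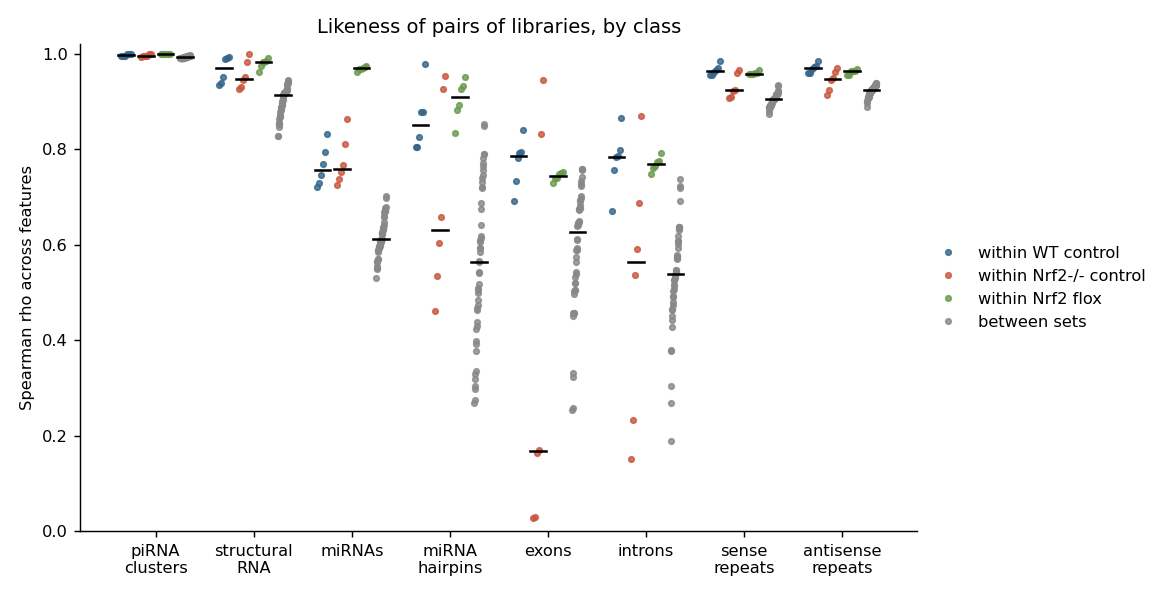
Spearman's rho between pairs of libraries for each class, with pairs within a set and pairs between sets drawn separately. The lowest value for piRNA clusters is 0.990, and values spread most for hairpins, exons and introns.

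Features among the 10 highest of a class in at least 1 library give the same picture in counts. For piRNA clusters 9 of 12 such features were among the 10 highest in all 12 libraries. For structural RNA it was 6 of 19, for antisense repeats 4 of 15, for introns 4 of 18, for hairpins 3 of 20, for exons 2 of 21, for sense repeats 1 of 26 and for miRNAs 1 of 27. The first 5 features came in 3 different orders for piRNA clusters, 10 for structural RNA and for exons, 11 for miRNAs and for introns, and 12 for hairpins and for sense repeats.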

How the data were processed

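Small RNA reads of 28 sperm libraries had been counted per feature, and the authors deposited raw counts in 3 tables, 1 per genotype series, with a class for each feature. Per the labels' protocols, RNA was taken with Trizol and libraries were made with Qiaseq; the aligner, the build and how reads with several positions were treated are not given in the sources used here. No label ties replicate numbers to animals. The 12 control libraries were read with Python 3.11.15, pandas 2.3.3, numpy 2.4.6 and scipy 1.17.1, and rows of 1 feature name and class were summed. Shares were taken of all counts or of the counts of a class, and ranks within a class, with tied counts given their mean rank. Depth was 1993933 to 11119711 counts, so a class share carried a 95% Wilson interval of at most 0.0652 percentage points to either side. Expected numbers of detected features used analytic rarefaction to the lowest depth. No test between sets was run, since genotype and table cannot be told apart.

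Named were the 5 most abundant features of each class in any library, the 10 miRNAs highest on average, the 3 miRNAs per direction whose ranks differed most between sets without overlap among those of at least 0.1% of miRNA counts in either set, up to 4 members per list, leading features with a gap, and Nfe2l2. The members and lists were chosen with earlier results of these data known. Alternatives were other denominators, medians, count minimums, features with gaps left out, a single row per name, entries with mature names only, TMM factors from edgeR 4.0.16 in R 4.3.3, and each library left out in turn. Near-identical rows counted once, pairs of Nrf2-/- controls left out, and features above 0 in all 12 libraries were chosen after seeing the data. The scripts were tested on simulated data. Sequences and positions came from RefSeq tables on GRCm38.p6.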

Additional observations from a re-analysis of the deposited data

Results flagged for a closer look

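In 10 of 111 values tested, 1 library lay far from the other 3 of its set relative to the range of the set, where chance gives about 1 in 20 for independent values. Many of these values are shares of 1 total in the same libraries and are not independent. The 10 of 111 can therefore not be set against that rate. WT control 1 had 75.8% of its counts in structural RNA against 22.5 to 28.7% in the other WT controls, 1.79% in sense repeats against 4.96 to 5.14%, and 2.12% in antisense repeats against 6.28 to 6.65%. WT control 4 had 9.71% of its miRNA counts in smooth muscle and fibroblast miRNAs against 0.745 to 2.15%, 0.235% in red blood cell miRNAs against 0.0576 to 0.0745%, and 0.0471% in the Dlk1-Dio3 cluster against 0.00718 to 0.00879%. This is the library with miR-16-5p at 0.

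Nrf2 flox 1 had 1.90% of its miRNA counts in skeletal muscle miRNAs against 0.265 to 0.328% in the other Nrf2 flox libraries. Nrf2 flox 3 had 5.85% in miR-17-92 and its paralogues against 6.87 to 7.07%. The same library had 243 CPM in Nrf2 target genes against 192 to 196 CPM, and 1226 CPM in ribosomal protein genes against 846 to 868 CPM. It also had the highest exon level of smooth muscle and fibroblast genes of the 12 libraries, 431 CPM.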

How the results depend on the processing

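No paired analysis was possible because no comparison between sets was tested and the 3 sets lie in separate tables with no label that pairs their libraries. Leaving out each library in turn, the mean miRNA share ran from 9.74 to 13.7% in WT, 28.5 to 36.7% in Nrf2-/- and 16.4 to 19.3% in Nrf2 flox libraries. In the same order piRNA shares ran from 25.9 to 35.2, 14.9 to 20.4 and 22.4 to 24.8%, and structural shares from 25.1 to 42.9, 28.5 to 31.5 and 30.6 to 33.8%. The 10 highest miRNAs held 59.6 to 65.3, 85.0 to 85.9 and 61.0 to 63.0%, and the 10 highest piRNA clusters 38.1 to 38.3, 38.4 to 38.6 and 38.4 to 38.5%. The sperm list ran from 674 to 829, 618 to 1019 and 1016 to 1085 CPM, and the epididymis list from 586 to 755, 724 to 1489 and 901 to 989 CPM. Counts of miRNAs with ranks apart, of 307 compared, ran from 42 to 57 (better in WT) and 45 to 58 (better in Nrf2-/-), 82 to 101 (WT) and 82 to 92 (Nrf2 flox), and 83 to 89 (Nrf2-/-) and 76 to 83 (Nrf2 flox). With a library left out such a count can only stay or rise, so these ranges do not show how stable the counts are.

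With structural RNA out of the denominator, the miRNA share was 18.05, 46.2 and 26.6% in WT, Nrf2-/- and Nrf2 flox libraries, and the piRNA share was 45.5% in WT and 35.6% in Nrf2 flox. With piRNA clusters out, the miRNA share was 17.0% in WT and 23.6% in Nrf2 flox, and the structural share 37.0% in Nrf2-/- and 42.9% in Nrf2 flox. Counting only the highest row of each structural RNA gave structural shares of 8.44 and 7.21% in Nrf2-/- and Nrf2 flox, and miRNA and piRNA shares of 24.7 and 33.0% in Nrf2 flox. Counting near-identical rows once, the 10 highest piRNA clusters held 45.4, 45.4 and 45.8%. As a percent of exon counts the sperm list was 1.14, 1.16 and 1.02% in WT, Nrf2-/- and Nrf2 flox, so its order changed. The epididymis list was 1.03, 1.02 and 0.933% in that order. By CPM its means were 659, 1137 and 953, so its order changed too. The median miRNA rho within sets was 0.914 without features with gaps and 0.963 for features above 0 in all libraries. Between sets it was 0.672 and 0.716, and 0.509 at a mean of at least 100 counts and 0.702 with no filter. With no filter the piRNA values were 0.987 within and 0.984 between sets. At a mean of at least 100 counts, 167 miRNAs were compared. Of these, 25 (15%) were better in WT and 29 (17.4%) in Nrf2-/-. For WT and Nrf2 flox they were 44 (26.3%) and 46 (27.5%), and for Nrf2-/- and Nrf2 flox 47 (28.1%) and 41 (24.6%). With no filter 1172 were compared, 57 (4.86%) better in WT and 69 (5.89%) in Nrf2-/-. For WT and Nrf2 flox they were 152 (13%) and 127 (10.8%), and for Nrf2-/- and Nrf2 flox 165 (14.1%) and 144 (12.3%). So with no filter the counts were higher and the shares lower than among the 307 miRNAs. TMM factors gave 119 (38.8%) of 307 better in Nrf2 flox than in Nrf2-/-. Among the 138 miRNAs above 0 in all libraries they were 21 (15.2%) and 28 (20.3%), 31 (22.5%) and 41 (29.7%), and 32 (23.2%) and 35 (25.4%). The causes of these changes were not tested.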
